A study of Mus musculus with 6 samples.

Results

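Cholesterol synthesis, uptake and sterol control were examined as a list of 36 genes in AML12 cells, an established mouse hepatocyte line, after hypoxia and reoxygenation (H/R). A gene was a member if its symbol was on the list, whatever its values. Of the 36 genes, 34 had a row in the count tables, which list 25330 genes, and 33 had enough counts for a test, as did 14020 of all genes. Mylip, which encodes the ubiquitin ligase that degrades lipoprotein receptors, and Abcg1, a cholesterol exporter, had no row and were not analysed here.

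Cells make cholesterol from acetyl-CoA through mevalonate, isoprenoid units, squalene and lanosterol, and several enzymes of the later steps use molecular oxygen. The supply is set by feedback. When sterols are low, SCAP carries the transcription factors SREBP1 and SREBP2 (genes Srebf1 and Srebf2) from the endoplasmic reticulum to the Golgi for cleavage, and when sterols are high, INSIG1 and INSIG2 hold them back. The liver X receptors (genes Nr1h2 and Nr1h3) respond to oxysterols and promote cholesterol efflux. The liver is a main site of cholesterol synthesis and of lipoprotein uptake.

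The libraries were made from wild-type AML12 cells, 3 from control cells kept in normoxia (21% oxygen) and 3 from cells placed in serum-free and glucose-free medium at 1% oxygen for 6 h and then reoxygenated for 2 h. All cells had been grown with fetal bovine serum, insulin-transferrin-selenium supplement and dexamethasone. Medium and oxygen were changed together, so their shares in any difference cannot be told apart. AML12 is 1 line, derived from hepatocytes of a mouse transgenic for human TGF-alpha, and the labels do not say whether replicates were separate cultures, so p-values measure only the spread between these libraries.

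Total counts were 21026650 to 21854790 in control libraries and 20438746 to 21742441 in H/R libraries. Control replicate 1 stood apart from the other 5 libraries, with 0.601% of its counts on the ribosomal RNA gene Rn18s-rs5 against 0.133% to 0.201%, so that the counts of called genes are also given without it. Hepatocyte markers were mixed. Hnf4a, Alb and Ttr fell and Krt8, Krt18 and Foxa2 rose, and Alb, the defining transcript of mature hepatocytes, had no more than 542 counts in any library. All 3 measured cholangiocyte markers (Krt7, Krt19 and Sox9) rose, with a summed level of 534 to 609 RPKM (reads per kilobase of exon, scaled to the library total) in control and 1009 to 1061 RPKM in H/R libraries, and Epcam had no row. Of the 5 leukocyte and Kupffer cell markers, Ptprc, Adgre1 and Clec4f had at most 3 counts in any library, whereas Cd68 had 16 to 22 counts in control and 113 to 137 in H/R libraries, and Csf1r also rose. No endothelial marker exceeded 4 counts, and of the 5 stellate cell and fibroblast markers Lrat, Reln and Pdgfrb had at most 2, while Des had 7 to 13 and Col1a1 had 4 to 16, the latter not called (adjusted p = 0.712, edgeR). The part of these shifts in the results that follow was not tested.

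After H/R the synthesis pathway was lower almost throughout, and the genes around it moved in both directions. Of the 33 genes tested, 24 fell and 7 rose at an adjusted p under 0.05 (quasi-likelihood test of edgeR, with Benjamini-Hochberg adjustment over all genes tested). Among all genes tested, 31.8% fell and 31.0% rose by this rule (62.8% in either direction), so a call by itself was common in this comparison. The share of members that fell was 24 of 33, and their median log2 fold change was -0.47, against -0.01 for all genes tested. At a fold change of at least 2, Acat2, Idi1, Dhcr7 and Scarb1 fell and Insig2 and Soat1 rose, beside 4.27% and 4.25% of all genes tested. In bulk RNA, fewer cells expressing a gene and less RNA per cell cannot be told apart. Without control replicate 1, 21 members fell and 7 rose, and Fdps, Fdft1 and Nr1h2 were no longer called.

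Of the 20 synthesis enzymes, 19 fell and 1 (Ggps1) rose, with a median log2 fold change of -0.55. The 20 enzymes together took 0.604% to 0.623% of all counts in control libraries and 0.392% to 0.393% in H/R libraries. Their summed level was 1780 to 1844 RPKM in control and 1131 to 1141 RPKM in H/R libraries. For the 13 other members tested, 6 rose, 5 fell and 2 were not called, and the median was 0.12. In 24 of the 33 genes every H/R library lay below every control library, and in 8 every one lay above, whereas the shares for all genes tested were 33.5% and 32.5%. Without control replicate 1, 17 enzymes fell and 1 rose.

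**Figure D1:**
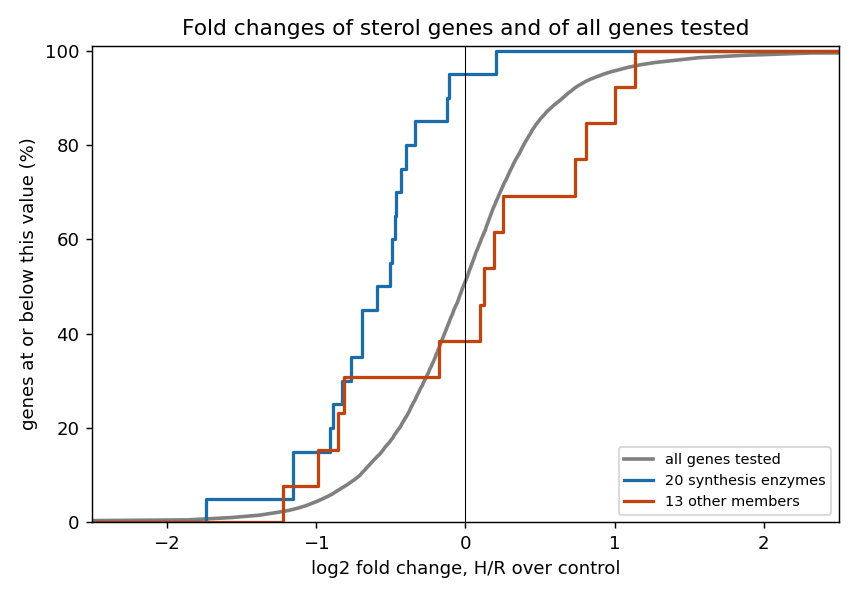
Cumulative distribution of log2 fold changes (x axis, H/R over control) as the percent of genes at or below each value (y axis), for the 20 synthesis enzymes, the 13 other members tested and all 14020 genes tested. The enzyme curve lies to the left of the curve of all genes and ends at 0.20, while the curve of the other members reaches from -1.22 to 1.14.

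The promoters of the enzymes were compared because the enzymes moved together. RefSeq windows of the 250 bases before a transcription start (GRCm38.p6) were found for 29 members with 38 windows, among them 17 enzymes with 20 windows. No window of Fdft1, Sqle, Stard4, Npc1, Scarb1, Fdps or Abcg1 was used. Of the 14020 genes tested, 9201 had a window, and the shares given below for tested genes refer to their 11769 windows. Windows were searched on both strands for the CCAAT box (CCAAT), the GC box (GGGCGG), the core of the sterol regulatory element to which SREBPs bind (TCACNCCAC) and, added after the values were seen, the core of the hypoxia response element (ACGTG). No motif contains another, and a match is a description of sequence and not a binding site. Only these exact letters were searched, so a window without a match may still be bound.

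A CCAAT box, the motif of the factor NF-Y, was present in 16 of the 20 enzyme windows (80.0%), against 35.7% of the windows of all tested genes, 33.8% of all 32851 windows and 44.4% of the windows of the other members. The GC box was present in 80.0% of enzyme windows and 57.2% of the windows of tested genes, and the mean GC content was 60.6% and 59.8%. The hypoxia response core was present in 15.0% and 21.8%. The sterol regulatory core was found in 1 enzyme window, that of Hmgcs1, and in 1.08% of the windows of tested genes. In Hmgcs1 it begins 137 bases before the RefSeq start, which lies upstream of the gene start used for the counts (119690462). The bases after this RefSeq start were not found at the head of an Hmgcs1 transcript in a second annotation (GENCODE). The same held for the windows of Lbr, Nsdhl and Sc5d and for a window of Srebf1, so these starts are uncertain. Shown as examples are the windows of 3 enzymes that fell and of both Insig genes, which moved in opposite directions. For a gene with several windows, the one with the most CCAAT boxes was taken. Only bases outside annotated exons are printed. Capitals mark the CCAAT box, which reads ATTGG on the opposite strand, and in Hmgcs1 also the sterol regulatory core.
Hmgcs1, chr13:119690101-119690350, plus strand: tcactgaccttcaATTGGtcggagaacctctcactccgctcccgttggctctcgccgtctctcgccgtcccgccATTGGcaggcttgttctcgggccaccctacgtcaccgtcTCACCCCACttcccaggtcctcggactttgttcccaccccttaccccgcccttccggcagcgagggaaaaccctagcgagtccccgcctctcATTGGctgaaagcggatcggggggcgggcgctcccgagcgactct
Mvk, chr5:114444061-114444268, plus strand: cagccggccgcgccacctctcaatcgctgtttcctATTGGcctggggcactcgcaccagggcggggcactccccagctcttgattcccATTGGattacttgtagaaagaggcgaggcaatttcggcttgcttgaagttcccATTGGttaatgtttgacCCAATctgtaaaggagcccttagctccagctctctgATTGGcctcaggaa
Hsd17b7, chr1:169969242-169969408, minus strand: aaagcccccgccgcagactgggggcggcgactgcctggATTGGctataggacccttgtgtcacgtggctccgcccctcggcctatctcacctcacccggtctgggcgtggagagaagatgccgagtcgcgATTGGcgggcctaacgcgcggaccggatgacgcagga
Insig1, chr5:28071162-28071362, plus strand: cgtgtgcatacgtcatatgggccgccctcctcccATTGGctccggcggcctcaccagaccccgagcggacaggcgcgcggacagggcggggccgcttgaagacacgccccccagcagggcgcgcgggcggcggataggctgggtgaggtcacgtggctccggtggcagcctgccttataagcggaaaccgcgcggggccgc
Insig2, chr1:121332590-121332839, minus strand: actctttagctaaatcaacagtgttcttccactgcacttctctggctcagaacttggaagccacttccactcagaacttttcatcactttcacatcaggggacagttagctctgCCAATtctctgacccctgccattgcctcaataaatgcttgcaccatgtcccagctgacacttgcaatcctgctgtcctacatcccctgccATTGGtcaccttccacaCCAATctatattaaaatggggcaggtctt
In these stretches the CCAAT box occurs 3 times in Hmgcs1, 5 times in Mvk, 2 times in Hsd17b7, 1 time in Insig1 and 3 times in Insig2. The other Insig2 windows (chr1:121327679-121327928 and chr1:121328025-121328274) had 0. Not all enzymes were like those shown. Acat2, which fell, had 0 in its window, and Dhcr7 had 0, 0 and 2 in its windows. Ggps1, which rose, had 3. Whether the box goes with the direction of change was not tested.

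The pathway begins with acetyl-CoA units. Acat2 (chromosome 17, 12942890 to 12960747, minus strand), the cytosolic thiolase that joins 2 acetyl-CoA, had normalised read counts of 5102, 4765 and 4977 in control and 2279, 2176 and 2203 in H/R libraries. The groups lay far apart and the fitted H/R level was 44.9% of control, or -1.16 on the log2 scale (standard error 0.043, adjusted p = 4.84e-22, edgeR). Hmgcs1 (chromosome 13, 119690462 to 119708086, plus strand) makes HMG-CoA, and its RefSeq window holds the sterol regulatory core shown above. Its normalised read counts were 15265, 15382 and 14808 in control and 9084, 8849 and 8744 in H/R libraries. Every H/R library was again below every control library, with a log2 fold change of -0.77 (adjusted p = 4.34e-17, edgeR).

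From mevalonate to the isoprenoids, 5 of 6 genes fell. Idi1 (chromosome 13, 8885501 to 8892451, plus strand), which isomerises isopentenyl diphosphate, had normalised read counts of 10670, 10089 and 9834 in control and 4698, 4691 and 4357 in H/R libraries. This was 44.9% of control, the same fitted level as for Acat2, with a log2 fold change of -1.15 (adjusted p = 1.21e-21, edgeR). Mvk (chromosome 5, 114444269 to 114460591), mevalonate kinase, had 2289, 2067 and 2117 in control and 1147, 1132 and 1172 in H/R libraries, a log2 fold change of -0.91. Mvd, mevalonate diphosphate decarboxylase, had 8127, 7608 and 7346 in control and 4204, 4337 and 3971 in H/R libraries, a log2 fold change of -0.88. The enzyme between these, phosphomevalonate kinase (Pmvk), changed less, from 5897 ± 411 to 4477 ± 141 (SD, n = 3), which was -0.40 on the log2 scale. Mvk, Pmvk and Mvd were all called (largest adjusted p = 3.41e-09, edgeR).

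The prenyl transferases at the branch of the pathway changed little. Fdps, which makes farnesyl diphosphate, had normalised read counts of 17194, 15998 and 16292 in control and 15034, 15420 and 15021 in H/R libraries. The groups did not overlap, but its log2 fold change was -0.12 (adjusted p = 0.0179, edgeR), and without control replicate 1 it was -0.09 (adjusted p = 0.103, edgeR). Its call was also lost without H/R replicate 1 or 3. Its exons share 26.7% of their length with Gm43738, so its count is uncertain. Ggps1, which makes geranylgeranyl diphosphate for protein prenylation, had 263, 252 and 236 in control and 296, 285 and 284 in H/R libraries. It was the single enzyme called higher, with a log2 fold change of 0.20 (adjusted p = 0.0459, edgeR), and it stayed called in 1 of 14 alternatives, the one without control replicate 1.

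Squalene and lanosterol formation comprised 3 genes, and all 3 fell. Sqle (chromosome 15, 59315077 to 59331192, plus strand), the squalene epoxidase and the first oxygen-using enzyme of the pathway, had normalised read counts of 6459, 6243 and 6489 in control and 3845, 4065 and 3960 in H/R libraries. The H/R level was 61.9% of control (log2 fold change -0.69, adjusted p = 1.57e-16, edgeR). Lss, which cyclises the epoxide to lanosterol, went from 6492 ± 39.9 to 4618 ± 154 (SD, n = 3), which was -0.49 on the log2 scale. Fdft1, squalene synthase, had 6247, 6123 and 6298 in control and 5835, 5658 and 5834 in H/R libraries, a log2 fold change of -0.11 (adjusted p = 0.0204, edgeR). The call of Fdft1 was lost without control replicate 1 (adjusted p = 0.0599, edgeR) and without H/R replicates 1 or 2, and 26.8% of its exon length is shared with Ctsb, on the other strand.

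All 9 genes of the steps from lanosterol to cholesterol fell, with log2 fold changes from -1.73 to -0.34 and a median of -0.50. The lowest value of the 33 members tested was that of Dhcr7 (chromosome 7, 143823145 to 143848410, plus strand), the reductase of the last step of the Kandutsch-Russell route. It had normalised read counts of 955, 930 and 956 in control and 278, 273 and 302 in H/R libraries. The ranges were narrow and far apart, and the fitted H/R level was 30.1% of control (log2 fold change -1.73, standard error 0.066, adjusted p = 7.04e-22, edgeR). Among the 14020 genes tested, this was the 90th lowest log2 fold change.

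Of the other genes of this segment, Hsd17b7, a 3-ketosteroid reductase of the demethylation complex, had 1243, 1183 and 1256 normalised counts in control and 720, 673 and 689 in H/R libraries (log2 fold change -0.82). Its partner Nsdhl, the sterol decarboxylase, went from 3816 ± 103 to 2752 ± 16.8 (SD, n = 3, log2 fold change -0.47). Ebp, the sterol isomerase, went from 6477 ± 356 to 4306 ± 186 (SD, n = 3, log2 fold change -0.59). Tm7sf2 and Lbr, which both reduce the C14 double bond (Lbr is also the lamin B receptor of the nuclear envelope), had log2 fold changes of -0.50 and -0.34. Exons shared with other genes make up 15.3% of Tm7sf2 and 10.7% of Lbr. The largest adjusted p of the 9 genes was 4.23e-06 (edgeR), that of Tm7sf2.

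The 4 oxygen-using enzymes all fell. Besides Sqle, they were Cyp51, Msmo1 and Sc5d. Cyp51 (chromosome 5, 4081145 to 4104746), the lanosterol demethylase and the member with the most counts, had normalised read counts of 21588, 20781 and 20657 in control and 15714, 15834 and 15269 in H/R libraries (log2 fold change -0.43). Msmo1, the C4-methylsterol oxidase, had 6697, 6337 and 6216 in control and 4533, 4595 and 4819 in H/R libraries (log2 fold change -0.46). Sc5d, the sterol C5-desaturase, had 1901, 1916 and 1969 in control and 1143, 1145 and 1285 in H/R libraries (log2 fold change -0.69). For none of the 4 genes did the groups overlap. Their median log2 fold change was -0.58, and that of the 16 other enzymes was -0.55, with a range of -1.73 to 0.20 that encloses the oxygen-using enzymes (-0.69 to -0.43). The difference between these medians was given no test.

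**Figure D2:**
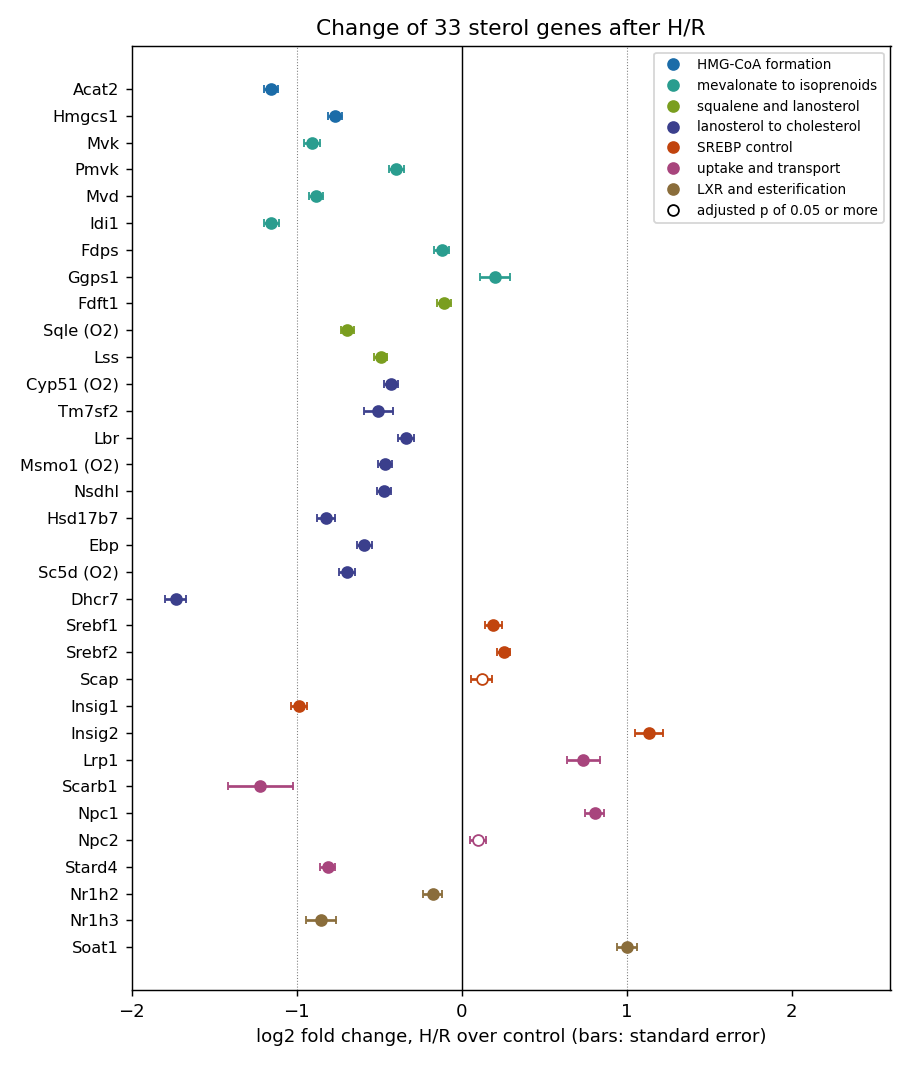
Log2 fold change, H/R over control (x axis), of the 33 genes tested in pathway order (y axis), with bars for the standard error. Filled points passed an adjusted p of 0.05, dotted lines mark 2-fold, and (O2) marks oxygen-using enzymes. The points from Acat2 to Dhcr7 lie left of 0 except Ggps1 at 0.20, and the genes of SREBP control, transport and storage lie on both sides.

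Within a group, the coefficient of variation of an enzyme's normalised count was 0.61% to 14.0%, with a median of 3.20%. Across the 20 enzymes, the control level in RPKM and the log2 fold change had a Spearman correlation of 0.02, and the control and H/R levels had a correlation of 0.97, both over genes that share libraries and are not independent replicates. Per kilobase, Cyp51 and Hmgcs1 had the highest control levels (233 ± 3.39 and 229 ± 2.20 RPKM, SD, n = 3), which did not differ beyond their spread, followed by Mvd (203 ± 7.64 RPKM). In H/R libraries Fdps (164 ± 2.32 RPKM) and Cyp51 (161 ± 1.77 RPKM) were highest, and these neighbours again did not differ beyond their spread.

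**Figure D3:**
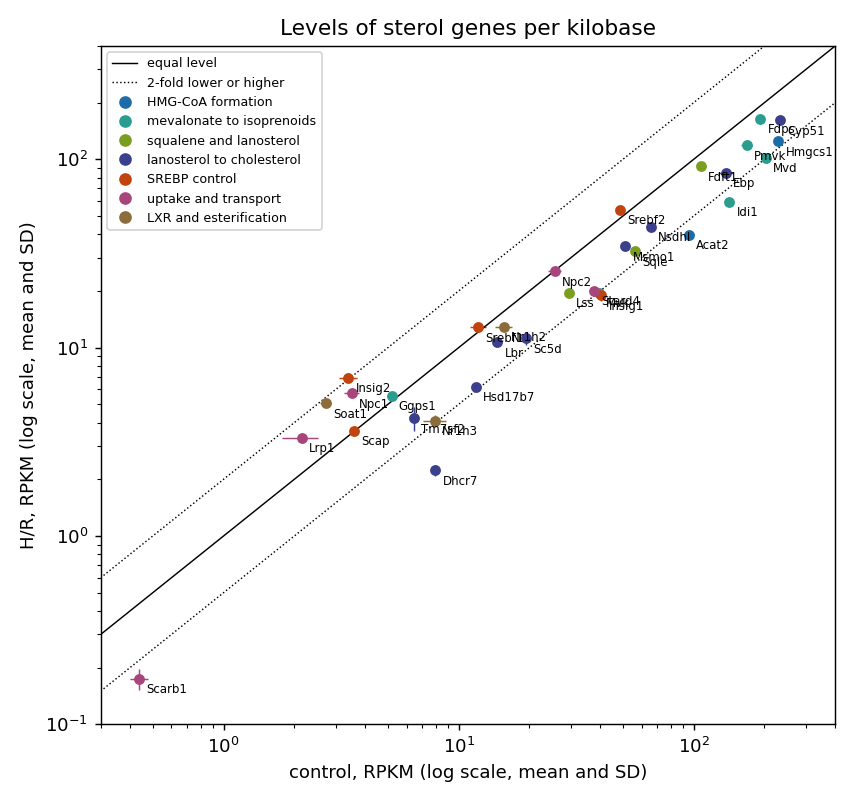
Mean level in RPKM of the 33 genes tested in control libraries (x axis, log scale) and H/R libraries (y axis, log scale), with bars for the SD over 3 libraries. The solid line marks equal levels and the dotted lines mark 2-fold. Enzymes from 233 RPKM (Cyp51) to 6.44 RPKM (Tm7sf2) in control libraries lie below the solid line. Acat2, Idi1, Mvk, Dhcr7, Insig1 and Scarb1 lie below the lower dotted line. RPKM is scaled by library totals alone, and in the main fit Mvk (53.3% of control) and Insig1 (50.5%) were not 2-fold lower.

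The genes that control SREBP did not move as a group. Srebf2, whose product drives the synthesis genes, had normalised read counts of 4844, 4902 and 5102 in control and 5776, 6035 and 5898 in H/R libraries. It rose by a log2 fold change of 0.25 (adjusted p = 1.56e-06, edgeR), in the opposite direction to the enzymes. Srebf1, which acts mainly on fatty acid synthesis genes, had 1366, 1317 and 1484 in control and 1616, 1595 and 1552 in H/R libraries. Its log2 fold change was 0.19 (adjusted p = 0.00122, edgeR), and with library totals in place of TMM scaling it was 0.09 (adjusted p = 0.149, edgeR). The call was also lost in both fits to RPKM values. Scap, the escort of the SREBPs, was 545 ± 26.6 in control and 594 ± 12.3 in H/R libraries (SD, n = 3) and was not called (log2 fold change 0.12, adjusted p = 0.0975, edgeR).

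Both INSIG genes changed, and in opposite directions. Insig1 (chromosome 5, 28071363 to 28078662, plus strand), itself a known SREBP target, had normalised read counts of 2541, 2547 and 2576 in control and 1260, 1231 and 1377 in H/R libraries. It fell to 50.5% of control (log2 fold change -0.99, standard error 0.048, adjusted p = 7.53e-19, edgeR). Insig2 (chromosome 1, 121304353 to 121332589, minus strand), which is not induced by SREBPs in the same way, had 239, 264 and 219 in control and 569, 508 and 512 in H/R libraries. It rose 2.20-fold (log2 fold change 1.14, standard error 0.084, adjusted p = 5.11e-14, edgeR), the largest increase among the 33 members tested.

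Per kilobase, Insig1 exceeded Insig2 in every library. The ratio of their RPKM values was 12.0, 10.8 and 13.2 in control and 2.49, 2.72 and 3.02 in H/R libraries, without overlap. The mean log2 ratio was 3.58 ± 0.143 in control and 1.45 ± 0.140 in H/R libraries (SD, n = 3), a difference of -2.13. With 3 libraries a group, the exact two-sided permutation test gave p = 0.1, the smallest it can give, and 0.2 after adjustment over the 4 ratios compared. The other ratios were Srebf1 to Srebf2 (difference -0.06, exact permutation p = 0.2), Tm7sf2 to Lbr (-0.18, p = 0.2) and Nr1h3 to Nr1h2 (-0.68, p = 0.1), each 0.2 after adjustment. A ratio of Abca1 to Abcg1 was not computed.

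**Figure D4:**
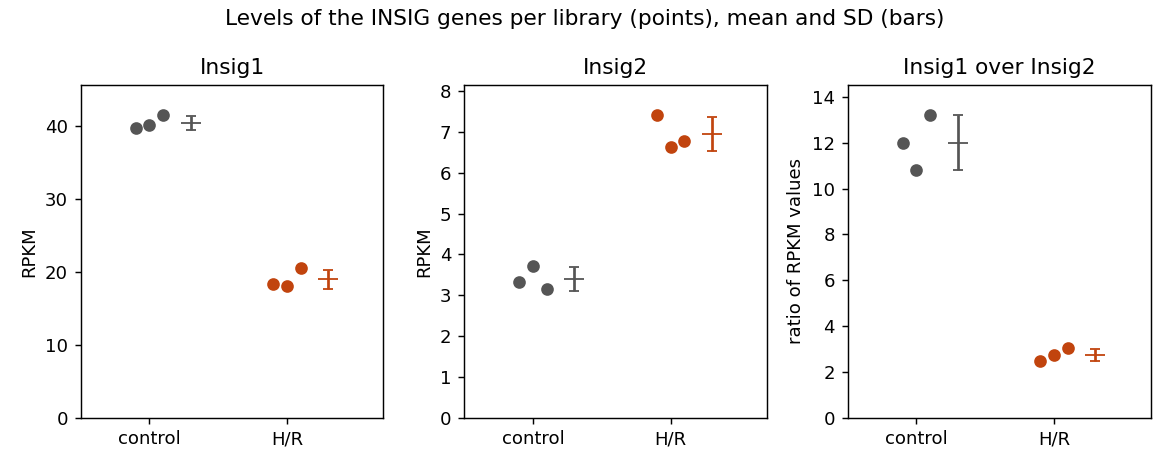
Levels of Insig1 and Insig2 in RPKM (left and middle, y axis) and the ratio of Insig1 to Insig2 (right, y axis) in 3 control and 3 H/R libraries (points), with mean and SD (bars). The ratio lies between 10.8 and 13.2 in control libraries and between 2.49 and 3.02 in H/R libraries.

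Of the 5 genes of uptake and intracellular transport tested, 2 rose and 2 fell. Lrp1 (chromosome 10, 127538161 to 127621148, minus strand), an endocytic receptor for lipoprotein remnants, had normalised read counts of 773, 653 and 908 in control and 1306, 1323 and 1262 in H/R libraries. The control libraries varied widely, yet all lay below the H/R libraries (log2 fold change 0.74, adjusted p = 1.48e-04, edgeR). Scarb1, the receptor for high-density lipoprotein (chromosome 5, 125277087 to 125341094), had 80.5, 68.3 and 79.1 in control and 35.5, 28.0 and 34.0 in H/R libraries. It fell by 1.22 on the log2 scale (standard error 0.195, adjusted p = 1.58e-06, edgeR), at a low level of 0.438 ± 0.040 RPKM in control libraries (SD, n = 3).

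Npc1, the membrane protein that exports cholesterol from lysosomes, had 772, 722 and 813 normalised counts in control and 1388, 1323 and 1323 in H/R libraries. It rose 1.75-fold (log2 fold change 0.81, adjusted p = 8.06e-15, edgeR). Its soluble partner Npc2 overlapped between groups, with 1669, 1643 and 1796 in control and 1880, 1770 and 1826 in H/R libraries, and was not called (adjusted p = 0.0686, edgeR). Stard4, a cytosolic sterol carrier, had 4476, 4374 and 4053 in control and 2525, 2489 and 2344 in H/R libraries and fell by 0.81 on the log2 scale (adjusted p = 3.92e-17, edgeR).

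Of the genes of efflux, liver X receptors and esterification, Soat1 (chromosome 1, 156424525 to 156474331, minus strand), which esterifies cholesterol for storage, rose. Its normalised read counts were 584, 525 and 521 in control and 1123, 1101 and 1041 in H/R libraries, which is 1.00 on the log2 scale (standard error 0.060, adjusted p = 2.39e-16, edgeR). Its fold change of 2.00 lies at the 2-fold threshold, so its place among the 2-fold genes depends on the scaling. Nr1h3, the liver X receptor alpha, fell from 358, 436 and 428 in control to 222, 246 and 210 in H/R libraries (log2 fold change -0.85, adjusted p = 6.31e-10, edgeR). Nr1h2, the liver X receptor beta, was 1158, 972 and 1080 in control and 941, 959 and 943 in H/R libraries (log2 fold change -0.18, adjusted p = 0.00907, edgeR), and without control replicate 1 its adjusted p was 0.111 (edgeR). With DESeq2 it was 0.0762.

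Abca1, the exporter of cholesterol to apolipoprotein A1, was near the floor of detection. It had 7, 1 and 0 counts in control and 0 in each H/R library, and a count of 0 allows up to 3 counts, or 1.42e-05% of a library. The highest count was in control replicate 1, the library that stood apart. No fold change is given. The fit without a filter on low counts called 25 members lower, Abca1 among them. That call rests on control counts of 7, 1 and 0, so no difference is claimed.

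**Figure D5:**
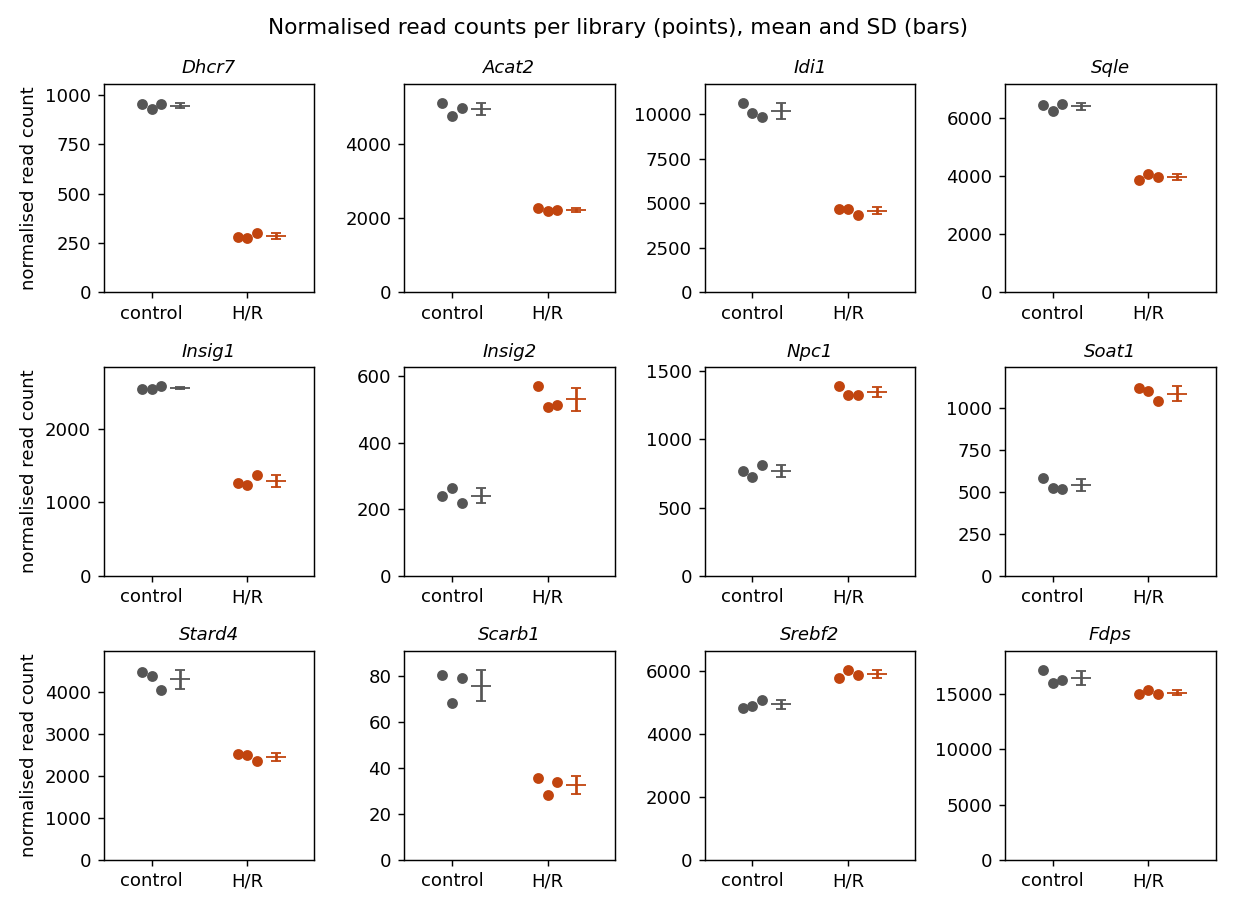
Normalised read counts (y axis, from 0) of 12 members in 3 control and 3 H/R libraries (points), with mean and SD (bars). Dhcr7, Acat2, Idi1, Sqle, Insig1, Stard4 and Scarb1 are lower in every H/R library, Insig2, Npc1, Soat1 and Srebf2 are higher in every one, and Fdps differs by a log2 fold change of -0.12.

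Genes that act beside the pathway were taken from a list of 32, of which 29 were tested. Of these, 12 rose, 9 fell and 8 were not called, with a median log2 fold change of -0.04, beside 31.0% higher and 31.8% lower among all genes tested. Without control replicate 1, 12 rose, 6 fell and 11 were not called. Past 2-fold, Pdss2, a subunit of the polyprenyl synthase that starts ubiquinone synthesis, fell from 200, 164 and 207 normalised counts in control to 75.4, 69.0 and 65.0 in H/R libraries (log2 fold change -1.45, adjusted p = 1.58e-11, edgeR). Rabggta, a subunit of the Rab geranylgeranyl transferase, rose from 103, 93.6 and 105 in control to 212, 232 and 241 in H/R libraries (log2 fold change 1.18, adjusted p = 3.87e-11, edgeR).

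By function, the 9 tested genes that use isoprenoids were 5 higher and 4 lower, with a median of 0.20, and without control replicate 1 they were 5 higher, 2 lower and 2 not called. The 5 electron donors and protein partners of the oxygen-using enzymes were 2 higher, 2 lower and 1 not called. Chosen after their values were seen, cytochrome P450 reductase (Por) rose by a log2 fold change of 0.51 and the cytochrome b5 gene Cyb5b fell by 0.60 on the log2 scale (adjusted p = 7.50e-13 and 9.19e-15, edgeR). The 7 genes of SREBP cleavage and sterol-regulated degradation were 2 higher, 3 lower and 2 not called, or 2, 2 and 3 without control replicate 1. Of 7 other sterol transport genes, 3 were higher and 4 were not called. The single oxysterol-forming gene tested, Cyp27a1, was not called (log2 fold change 0.16, adjusted p = 0.572, edgeR), and Ch25h had no row.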

How the data were processed

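RNA-seq of 3 control and 3 H/R (H6R2) AML12 libraries was used, grouped by their labels. The authors extracted total RNA with TRIzol, made stranded mRNA libraries and mapped paired-end reads to GRCm38. Trimmomatic 0.36, featureCounts, Subread 1.5.1 and edgeR 3.12.1 are named in the submitters' processing notes, while the annotation and the strand setting of the counting are not given in the sources used here. The deposited counts are whole reads per gene, to which the authors applied no normalisation. The RPKM values deposited by the authors follow from count, exon length and library total, with a largest relative error of 1.13e-06. Depth was about equal between libraries, and small counts are limited by counting error.

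Counts were tested in R 4.3.3 with edgeR 4.0.16 (filterByExpr, TMM scaling, glmQLFit with robust dispersions and glmQLFTest, Benjamini-Hochberg adjustment over 14020 genes, threshold 0.05), a fold change of 2 being a separate threshold. The biological coefficient of variation was 0.0502. Normalised read counts are counts scaled to the mean effective size of the 6 libraries. The members, lists, tests and alternatives were chosen with earlier results of these data known. All members are named, and of the other lists the genes past both thresholds (at most 6). Marker genes are also named, and Por, Cyb5b and Cyp27a1 were named after their values were seen. The alternatives were DESeq2 1.42.0, scaling by upper quartile or by library totals, a filter of 10 counts per library or none, a replicate block, limma 3.58.1 (limma-trend) on log2 RPKM with a pseudocount of 1 or 0.1, and 6 fits that each omit 1 library. The fit was tested on simulated data. Gene pairs were compared as log2 ratios of RPKM by exact two-sided permutation tests. Of the 34 members with a row, 23 share no exon with another gene, and the counts of the others are uncertain. Gene coordinates are those of the deposited tables. Promoter sequences are from RefSeq.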

Additional observations from a re-analysis of the deposited data

How the results depend on the processing

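Over 14 alternatives, the 33 genes gave 462 log2 fold changes with a call, of which 434 kept direction and side of the threshold. A call was lost in 24 and gained in 1, and 3 changed sign, over 6 genes (Fdps, Ggps1, Fdft1, Srebf1, Npc2 and Nr1h2). The sign changes were those of Npc2, at -0.0052 with library totals, -0.0038 with log2(RPKM + 1) and -0.0039 with log2(RPKM + 0.1). The number of members that rose at least 2-fold was 1 with upper quartile scaling, library totals, at least 10 counts in every library or log2(RPKM + 0.1), 0 with log2(RPKM + 1), whose pseudocount shrinks changes at low levels, and 1 to 2 on leaving out 1 library. The median of the members was -0.54, -0.58, -0.53 and -0.57 with upper quartile scaling, library totals, log2(RPKM + 1) and log2(RPKM + 0.1), where the median of all genes was -0.08, -0.12, -0.08 and -0.11. With members that share exons left out, an alternative chosen after seeing the data, 4 rose and 17 fell and the median was -0.69. From 17 to 19 of the 20 enzymes fell in the 14 alternatives, with 17 on leaving out control replicate 1 or H/R replicate 1, and the number 2-fold lower among the members was 4 to 6. The genes behind that number also changed. With log2(RPKM + 1) and log2(RPKM + 0.1), Scarb1 was not 2-fold lower (-0.29 and -0.97), whereas Insig1 was (-1.05 and -1.09).

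Replicate numbers gave no pairing, since same-numbered control and H/R libraries correlated at -0.0269, 0.0048 and -0.0141 in their deviations from the group means. With the replicate block, 24 members fell, 6 rose, 2 rose at least 2-fold and 4 fell at least 2-fold, with a median of -0.47. The 4 paired-gene ratios, run with 0.1 added to RPKM and on leaving out each of the 6 libraries, kept the sign of their difference there and were not run under the other settings. At 3 counts or fewer in most libraries, no statement on Abca1 could be made, although the fit without a filter called it lower.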
